A study of Mus musculus with 12 samples.

Results

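The response of a gene to nephritis was compared between both dendritic cell subsets of the mouse kidney, as the change in CD11b+ cells less the change in CD103+ cells. All 12 libraries entered this comparison, which is every sample of the series, and 14180 of the 26121 genes in the table reached 1 CPM (a read count per 1000000 reads of the scaled library) in at least 3 libraries and were tested. The members described here are the genes whose responses differed between the subsets, or ran in opposite directions, with their level in each of the 4 groups. The groups were CD11b+ cells with nephritis, CD11b+ cells without it, CD103+ cells with nephritis and CD103+ cells without it, with 3 libraries in each. All cells came from wildtype males aged 8 to 12 weeks, and each mouse gave cells of both subsets. Of the 6 mice, 3 were killed 7 days after they had received nephrotoxic antiserum and 3 were healthy. RNA came from cells that had been enriched on CD45 beads and then sorted.

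Nephrotoxic antiserum carries antibodies that bind the filter of the glomerulus and start an immune disease of the kidney. Dendritic cells take up material in a tissue and show it to T cells, and textbook accounts divide them into a CD103+ lineage, set by the transcription factors Irf8 and Batf3 and able to prime CD8 T cells through cross-presentation, and a CD11b+ population that overlaps in markers with cells derived from monocytes. The study's title states its interest in opposing roles of the subsets in glomerulonephritis. A gene with a positive difference of responses changed upward in CD11b+ cells relative to CD103+ cells, and a gene with a negative one changed upward in CD103+ cells relative to CD11b+ cells.

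The subset labels held in both states. Levels given as a value ± another are means and SDs over the 3 libraries of a group. Itgae, which encodes CD103, averaged 4.82 ± 0.207 CPM in nephritic and 2.22 ± 0.904 CPM in healthy CD11b+ cells, against 1034 ± 178 CPM in nephritic and 91.9 ± 31.7 CPM in healthy CD103+ cells. Itgam, which encodes CD11b, averaged 315 ± 26.5 and 124 ± 8.53 CPM in nephritic and healthy CD11b+ cells, against 6.89 ± 0.375 and 1.75 ± 0.260 CPM in nephritic and healthy CD103+ cells. Library totals ran between 11486182 and 26556814 reads, so that 3 reads, the count below which a value was read as a floor, corresponded to 0.112 to 0.254 CPM. The sources used here do not say which libraries share a mouse.

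The libraries of healthy CD103+ cells stood apart from the other 9 in their content of kidney epithelium. Transcripts of 18 tubule genes summed to 0.408% to 0.674% of all CPM in nephritic CD11b+ cells and to 0.793% to 2.02% in healthy CD11b+ cells. The same genes summed to 0.390% to 0.462% in nephritic CD103+ cells and to 3.50% to 5.66% in healthy CD103+ cells. The mean log2 value of 39 leukocyte genes moved the other way, at 7.92 to 7.99 and 7.45 to 7.65 in nephritic and healthy CD11b+ cells, and at 7.90 to 8.00 and 5.77 to 6.82 in nephritic and healthy CD103+ cells. Within bulk samples, fewer cells of a type and less RNA per cell cannot be told apart. Because a share of CPM taken by one cell type lowers all others, the counts over all genes and over the gene lists are also given after every library was shifted to the same mean over the leukocyte genes, called leukocyte scaling. This lowers every response by the same amount, 0.36 on the log2 scale in CD11b+ and 1.62 in CD103+ cells, and so raises every difference by 1.26. The median difference of all genes was 1.19 with it, against -0.07 as deposited. Of 64 genes whose differences were followed through the alternatives, 59 passed in the same direction with it, and Psmb8, Ccl4, Ms4a1, Usp18 and Il10 did not pass. This count was largely set in advance, because the genes named for a large difference were chosen among those that passed with it. For single genes, responses that gained or lost a call with leukocyte scaling are given beside the gene.

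**Figure D1:**
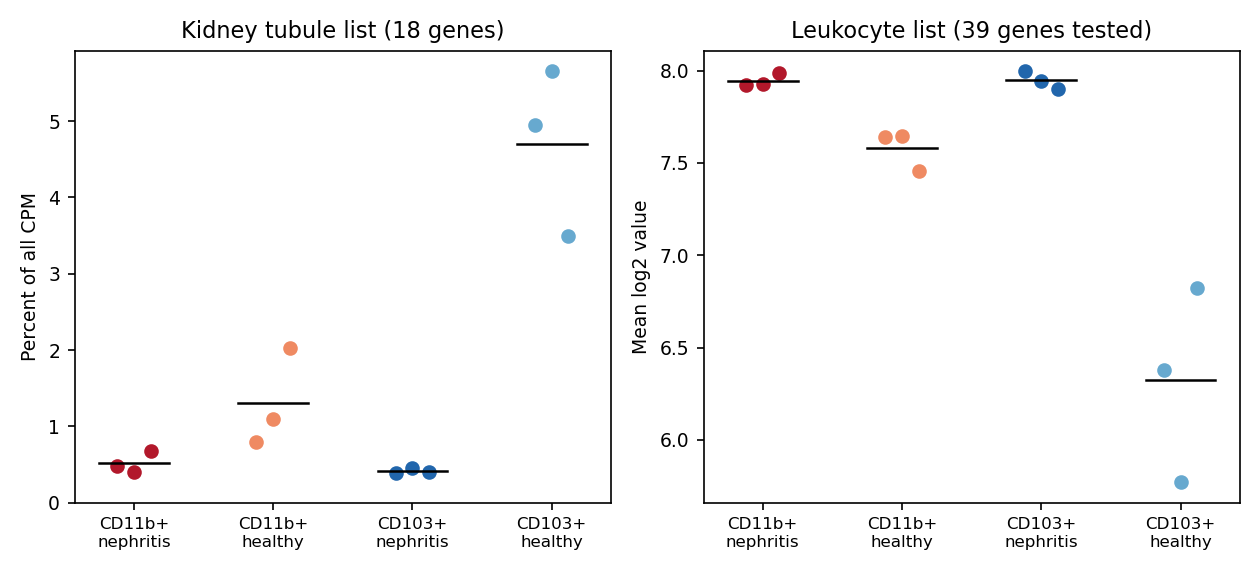
Left, the percent of all CPM taken by 18 kidney tubule genes; right, the mean log2 value of 39 leukocyte genes. Each point is a library and each bar the mean of 3; healthy CD103+ libraries held 3.50% to 5.66% of tubule transcripts, above every library of the other 3 groups.

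Promoters were sought for Thbs1, Tgm2, Csf2 and Xcl1, and those of Csf2 and Xcl1 are shown because the promoter reference held only these. The windows run from 250 bases before to 50 bases after the start of each gene in RefSeq, are taken from RefSeq on GRCm38.p6 and are written 5′ to 3′ on the minus strand, on which both genes lie. The Csf2 window is chr11:54249850-54250149 and the Xcl1 window is chr1:164935473-164935772. RefSeq starts Csf2 at 54249899, which is 232 bases upstream of the start in the GENCODE annotation used for the gene coordinates below, so that the window lies wholly upstream of the GENCODE gene. The starts of Xcl1 differ by 5 bases.
Csf2: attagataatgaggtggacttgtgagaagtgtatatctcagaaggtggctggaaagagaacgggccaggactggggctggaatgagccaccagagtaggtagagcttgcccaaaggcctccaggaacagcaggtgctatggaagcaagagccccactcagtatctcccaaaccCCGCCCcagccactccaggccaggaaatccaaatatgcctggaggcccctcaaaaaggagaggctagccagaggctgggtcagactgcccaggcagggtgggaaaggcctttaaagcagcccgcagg
Xcl1: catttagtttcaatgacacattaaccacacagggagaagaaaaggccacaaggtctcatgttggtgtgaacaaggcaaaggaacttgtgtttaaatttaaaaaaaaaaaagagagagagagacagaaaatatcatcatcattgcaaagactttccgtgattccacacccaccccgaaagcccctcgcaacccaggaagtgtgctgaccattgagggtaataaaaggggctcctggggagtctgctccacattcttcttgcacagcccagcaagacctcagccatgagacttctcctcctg
Capitals mark matches to the 3 motifs that were searched on either strand. The TATA box was searched as TATAAA, letters that 14.2% of 27025 promoters of this length held. The AP-1 site was searched as TGANTCA, which 7.93% of these promoters held. The GC box was searched as GGGCGG, which 35.9% of these promoters held. The Csf2 window held 1 GC box, on the opposite strand and 77 bases before the RefSeq start, and the Xcl1 window held none of the 3 motifs.

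Responses differed between the subsets for 5022 of the 14180 genes (35.4%) at an adjusted p under 0.05 in limma's moderated test with Benjamini-Hochberg adjustment. The difference was higher for 2510 genes (17.7%) and lower for 2512 genes (17.7%). Most of these calls came from a response of CD103+ cells alone. Among the 2510 genes with a higher difference, 1466 (58.4%) fell in CD103+ cells and did not pass in CD11b+ cells, 504 (20.1%) fell in both subsets, and 277 (11.0%) rose in CD11b+ cells and did not pass in CD103+ cells. Among the 2512 genes with a lower difference, 1431 (57.0%) rose in CD103+ cells and did not pass in CD11b+ cells, 462 (18.4%) rose in both, and 324 (12.9%) fell in CD11b+ cells and did not pass in CD103+ cells. By subset, 2850 genes (20.1%) rose and 2237 (15.8%) fell in CD11b+ cells, and 4911 (34.6%) rose and 3940 (27.8%) fell in CD103+ cells.

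Responses that passed in both subsets and ran in opposite directions were few. They rose in CD11b+ cells and fell in CD103+ cells for 157 genes (1.11%), and fell in CD11b+ cells and rose in CD103+ cells for 187 genes (1.32%). These counts were sensitive to single libraries. The 157 became 101, 87 and 86 without replicates 1, 2 and 3 of nephritic CD11b+ cells, and 240 without replicate 3 of healthy CD11b+ cells. The 187 became 124 and 107 without replicates 1 and 2 of nephritic CD11b+ cells, and 316 without replicate 3 of healthy CD103+ cells.

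**Figure D2:**
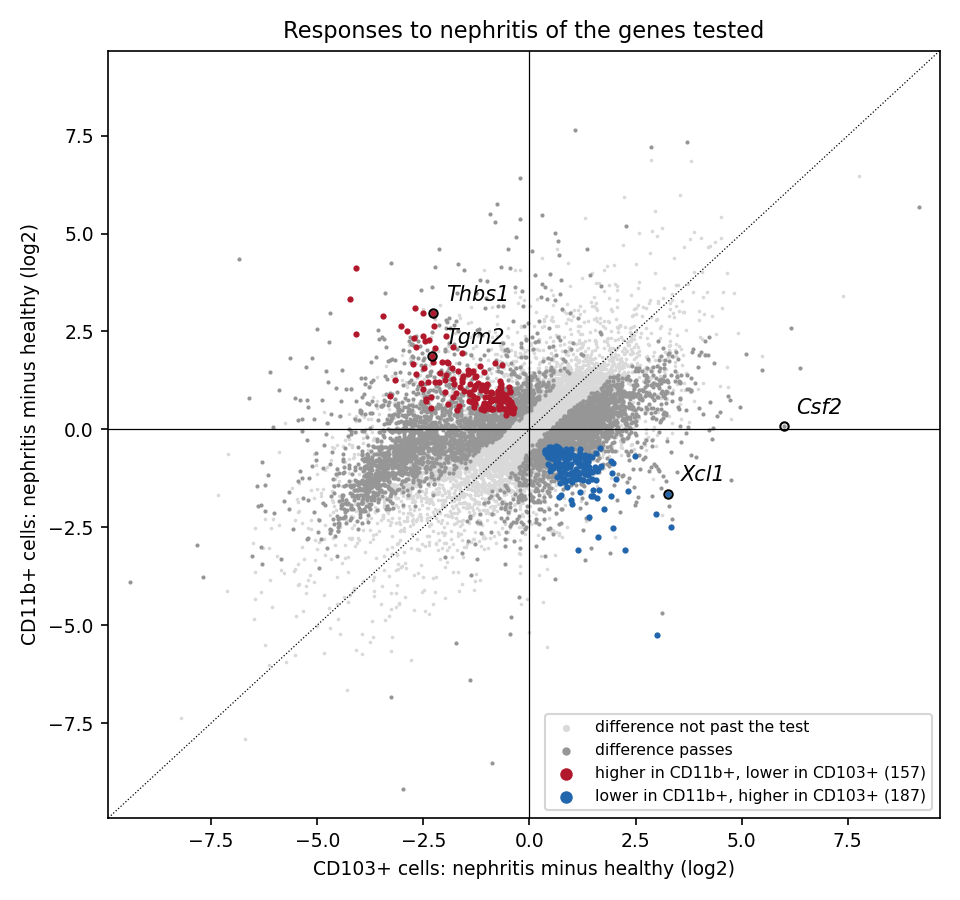
Response to nephritis (nephritis minus healthy, log2) of 14180 genes in CD11b+ cells (vertical axis) and in CD103+ cells (horizontal axis); the dotted line marks equal responses. Red points are the 157 genes higher in CD11b+ and lower in CD103+ cells, blue points the 187 genes the other way; Thbs1 and Tgm2 lie among the red points, Xcl1 among the blue, and Csf2 rose in CD103+ cells with a CD11b+ response near 0.

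Because leukocyte scaling raised every difference by the same 1.26, higher calls were gained and lower calls lost by construction. All 2510 higher calls passed again in the same direction, within 6921 higher calls in all (48.8%). Of the 2512 lower calls, 167 passed again, which were all the lower calls left (1.18%), 2330 no longer passed and 15 became higher calls. The higher share of all calls was 97.6% with leukocyte scaling, against 50.0% as deposited. All 157 genes that rose in CD11b+ and fell in CD103+ cells kept a higher difference and 61 of the 187 opposing genes of the other direction kept a lower one. Opposite responses that passed in both subsets and under both scalings were left for 11 and 2 genes. The 11 were Thbs1, Tgm2, Cdh1, F10, Rai14, Tmem151b, Tnfaip2, Steap3, Zhx3, Bmx and Gca, and the 2 were Xcl1 and Alox5. Bmx rests on few reads, 135 and 16 in nephritic and healthy CD11b+ cells, against 1 and 38 in nephritic and healthy CD103+ cells. CD103+ libraries overlapped between the states for Gca, at up to 17.21 CPM with nephritis and from 17.16 CPM in healthy cells. The difference of Gca was as low as 0.19 among the alternatives. With the tubule score as a covariate, 0 genes passed in limma, 1350 had an unadjusted p under 0.05, and the median SE of the difference was 0.68, against 0.37 without it.

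Thbs1, which encodes thrombospondin-1, a matrix glycoprotein that can activate latent TGF-beta, rose in CD11b+ cells and fell in CD103+ cells. The gene lies on chromosome 2 at 118111876 to 118127133 (GRCm38, plus strand). It had 68.0, 52.5 and 67.3 CPM in nephritic CD11b+ cells, against 6.76, 8.76 and 8.32 CPM in healthy CD11b+ cells. In CD103+ cells it had 4.59, 1.25 and 1.75 CPM with nephritis, against 9.75, 18.2 and 6.43 CPM in healthy cells. Nephritic and healthy libraries did not overlap in either subset, and nephritic CD11b+ cells held the highest level of the 4 groups. The fitted change was 7.84-fold upward in CD11b+ cells and 4.80-fold downward in CD103+ cells. The difference of responses was 5.23 ± 0.60 on the log2 scale (SE, adjusted p = 0.000194, limma), and 6.49 with leukocyte scaling.

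Tgm2, which encodes transglutaminase 2, an enzyme that cross-links matrix proteins, followed the same pattern. It lies on chromosome 2 at 158116402 to 158146436 (minus strand). It had 60.8, 70.5 and 90.6 CPM in nephritic CD11b+ cells, against 21.3, 20.3 and 18.6 CPM in healthy CD11b+ cells. In CD103+ cells it had 6.21, 7.86 and 13.5 CPM with nephritis, against 55.5, 41.6 and 33.3 CPM in healthy cells. The subsets thus changed order, since healthy CD103+ cells lay above healthy CD11b+ cells and nephritic CD103+ cells lay below nephritic CD11b+ cells, with no overlap in either state. The fitted change was 3.63-fold upward in CD11b+ cells and 4.88-fold downward in CD103+ cells, and the difference was 4.15 ± 0.37 (SE, adjusted p = 6.28e-05, limma), or 5.41 with leukocyte scaling. Of its exon bases 21.8% overlap exons of another annotated gene on either strand, and strand was not stated, so reads there could not be assigned. Tubule transcripts fell in CD103+ cells together with Thbs1 and Tgm2, in the shares given above, and their part in these falls was not tested.

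**Figure D3:**
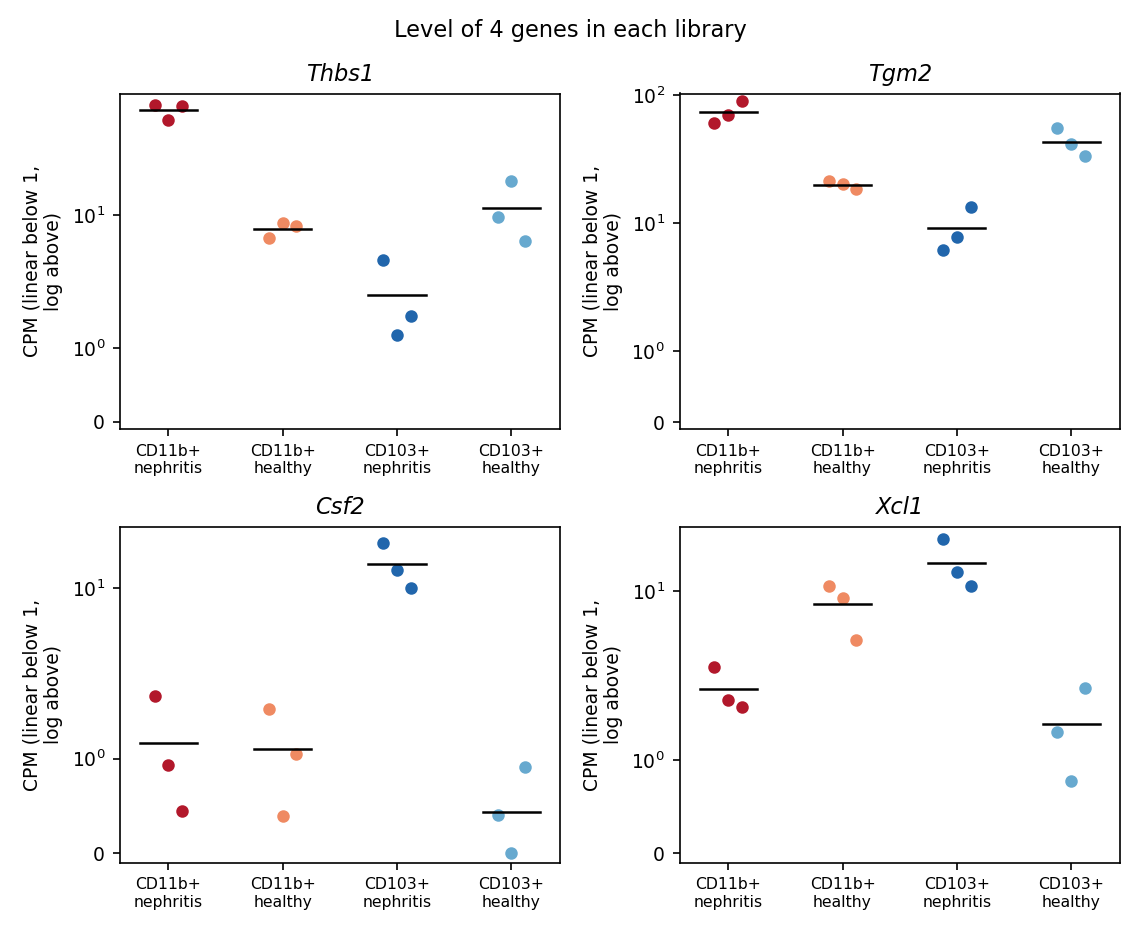
Level of Thbs1, Tgm2, Csf2 and Xcl1 in CPM (linear below 1, log above) in each of 12 libraries; points are libraries and bars the means of 3. Thbs1 and Tgm2 were highest in nephritic CD11b+ cells, and Csf2 and Xcl1 in nephritic CD103+ cells.

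Csf2 encodes GM-CSF, a growth factor for granulocytes and macrophages, and lies on chromosome 11 at 54247271 to 54249667 (minus strand). It had 2.34, 0.937 and 0.450 CPM in nephritic CD11b+ cells, against 1.94, 0.396 and 1.06 CPM in healthy CD11b+ cells. In CD103+ cells it had 18.6, 12.9 and 10.1 CPM with nephritis, against 0.401, 0 and 0.909 CPM in healthy cells. CD103+ libraries therefore separated by state without overlap, while CD11b+ libraries overlapped. The log2 response was 6.00 ± 1.10 in CD103+ cells (SE, adjusted p = 0.000355, limma) and 0.07 ± 1.10 in CD11b+ cells (SE, adjusted p = 0.967, limma). The difference was -5.92 ± 1.56 (SE, adjusted p = 0.011, limma), or -4.66 with leukocyte scaling, which passed. Since healthy CD103+ cells held 21 reads in all, its size rests on few reads. It was -4.32 without replicate 2 of healthy CD103+ cells, the library with 0 reads, and -1.96 when 4 CPM was added before the logarithm, and both passed the test. With the tubule score as a covariate the difference of Csf2 was -1.58 and did not pass. Of the exon bases of Csf2, 12.0% overlap another annotated gene.

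Xcl1 encodes lymphotactin, the chemokine that binds the receptor Xcr1, and lies on chromosome 1 at 164931644 to 164935527 (minus strand). It fell in CD11b+ cells and rose in CD103+ cells. It had 3.56, 2.26 and 2.06 CPM in nephritic CD11b+ cells, against 10.8, 9.16 and 5.13 CPM in healthy CD11b+ cells. In CD103+ cells it had 20.4, 13.1 and 10.8 CPM with nephritis, against 1.47, 0.773 and 2.67 CPM in healthy cells. No library overlapped between the states, and the subset with the higher level was CD103+ in nephritis and CD11b+ in health. The difference was -4.91 ± 0.63 (SE, adjusted p = 0.000258, limma), and -3.65 with leukocyte scaling, under which both responses still passed, at -2.00 in CD11b+ and 1.65 in CD103+ cells. It was -2.59 with 4 CPM added before the logarithm. Of its exon bases 18.7% overlap another annotated gene.

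Among the other genes that rose in CD11b+ and fell in CD103+ cells was Cdh1, which encodes the adhesion protein E-cadherin. It averaged 117 ± 17.1 CPM in nephritic and 19.0 ± 5.12 CPM in healthy CD11b+ cells, against 17.9 ± 5.05 CPM in nephritic and 86.8 ± 30.3 CPM in healthy CD103+ cells. Its difference was 4.90 ± 0.40 (SE, adjusted p = 6.16e-05, limma). This difference fell to 2.97 and did not pass when the fit also held the tubule score. Healthy CD103+ replicates 1, 2 and 3 had 96.0, 111.5 and 53.0 CPM of Cdh1, beside tubule shares of 4.95%, 5.66% and 3.50%. The part of tubule cells in the fall of Cdh1 was not tested. F10, the gene of coagulation factor X, averaged 35.7 ± 8.61 and 4.05 ± 0.355 CPM in nephritic and healthy CD11b+ cells, against 0.115 ± 0.0824 and 1.36 ± 1.71 CPM in nephritic and healthy CD103+ cells. Its response in CD103+ cells rests on 7 reads in nephritic and 69 reads in healthy libraries, and replicate 3 of healthy CD103+ cells, at 3.33 CPM, was the highest of these. Rai14 averaged 27.6 ± 9.43 and 4.81 ± 2.84 CPM in nephritic and healthy CD11b+ cells, against 1.63 ± 0.392 and 13.4 ± 3.19 CPM in nephritic and healthy CD103+ cells. Tmem151b averaged 6.67 ± 1.41 and 1.33 ± 0.686 CPM in nephritic and healthy CD11b+ cells, against 3.48 ± 2.09 and 19.4 ± 9.31 CPM in nephritic and healthy CD103+ cells, with 15.1% of its exon bases shared with another annotated gene. In each of these 4 genes the libraries of both states did not overlap in either subset, and both responses also passed with leukocyte scaling.

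Some of the named genes with a higher difference are known from distal and collecting parts of the kidney tubule. Atp6v1b1, a subunit of the proton pump of intercalated cells, averaged 19.0 ± 3.06 CPM in nephritic and 5.16 ± 3.78 CPM in healthy CD11b+ cells, against 7.32 ± 2.63 CPM in nephritic and 56.8 ± 37.3 CPM in healthy CD103+ cells. Trpv5, the calcium channel of the distal tubule, averaged 8.87 ± 3.95 and 2.40 ± 2.32 CPM in nephritic and healthy CD11b+ cells, against 1.74 ± 0.880 and 10.5 ± 6.99 CPM in nephritic and healthy CD103+ cells. Both rose in CD11b+ and fell in CD103+ cells, but with leukocyte scaling their CD11b+ responses, 1.98 and 1.90, did not pass. Slc4a9 and Slc26a4, anion transporters of intercalated cells, had differences of 5.06 ± 1.29 and 5.18 ± 1.29 (SE, adjusted p = 0.013 and 0.00924, limma) and fell in CD103+ cells, but their CD11b+ responses, 2.39 and 2.36, missed the threshold. Slc4a9 averaged 26.0 ± 2.80 and 8.07 ± 6.29 CPM in nephritic and healthy CD11b+ cells, against 8.89 ± 3.64 and 65.1 ± 41.8 CPM in nephritic and healthy CD103+ cells. With the tubule score as a covariate the difference turned to -0.81 for Slc26a4 and -0.83 for Trpv5 and was 0.48 for Atp6v1b1, and none of these passed. The difference of Slc4a9 was as low as 0.15 among the alternatives.

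**Figure D4:**
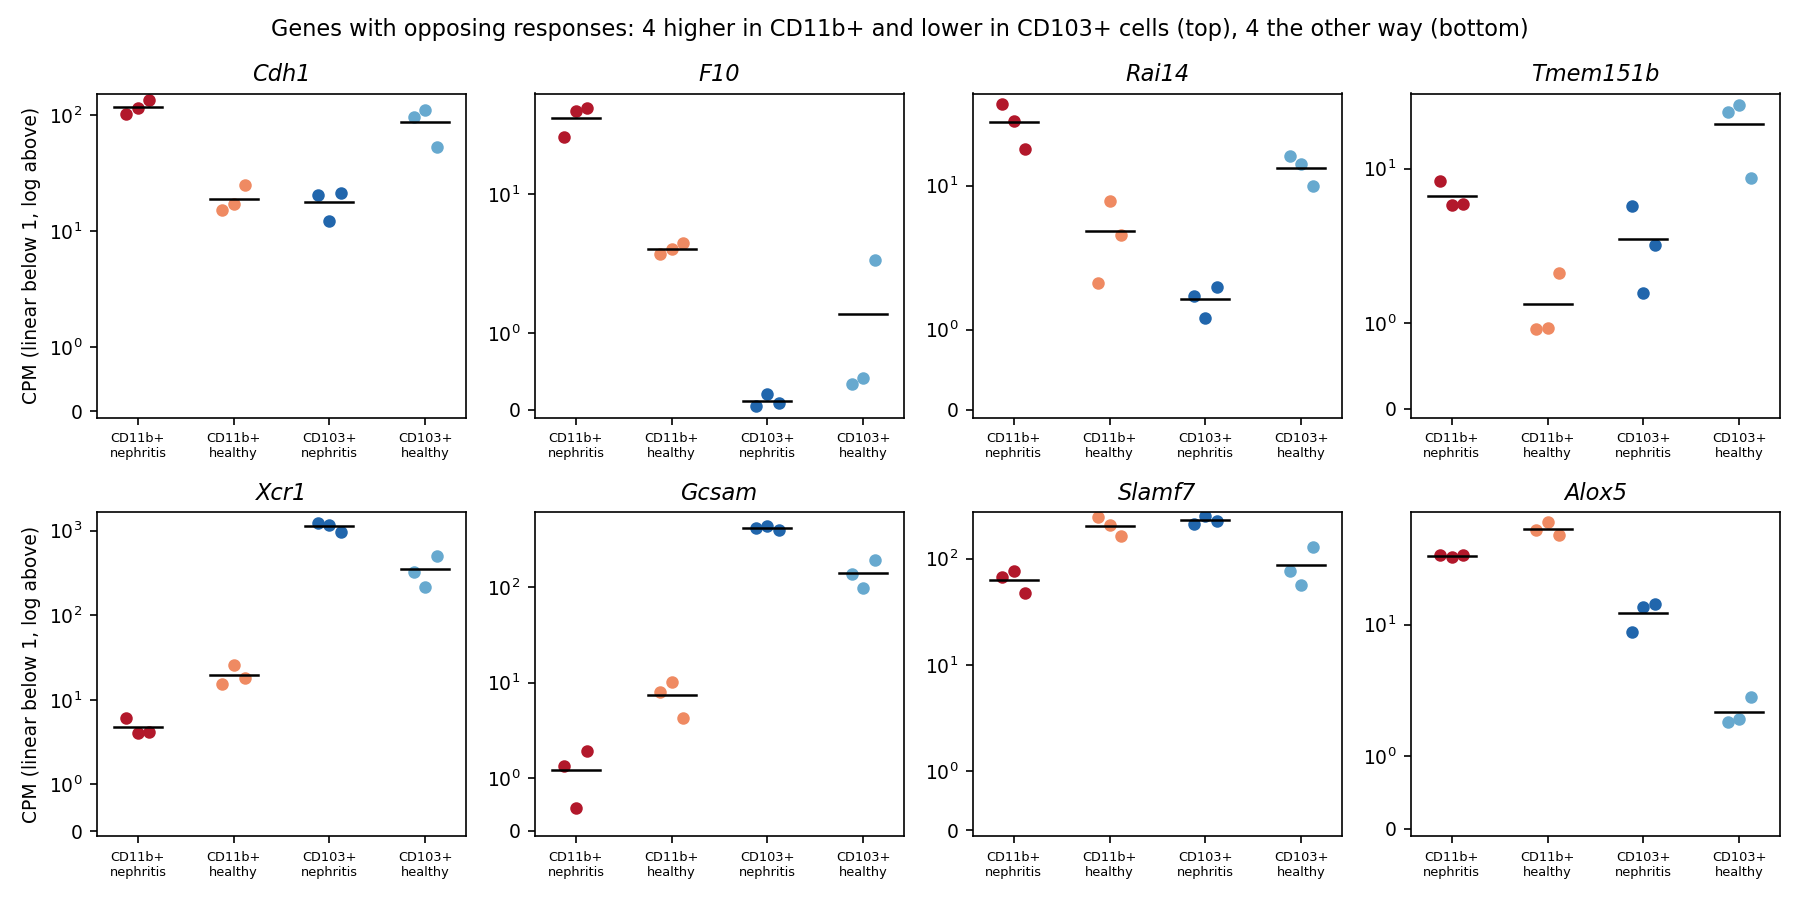
Level in CPM (linear below 1, log above) of 8 genes with opposing responses in each of 12 libraries; points are libraries and bars the means of 3. Cdh1, F10, Rai14 and Tmem151b (top) were higher in nephritic than healthy CD11b+ cells and lower in nephritic than healthy CD103+ cells, and Xcr1, Gcsam, Slamf7 and Alox5 (bottom) changed the other way.

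Genes that fell in CD11b+ and rose in CD103+ cells included Xcr1, Gcsam and Clnk, which the list of CD103+ lineage genes holds. Xcr1, the receptor of the Xcl1 product, averaged 4.77 ± 1.16 CPM in nephritic and 19.7 ± 5.34 CPM in healthy CD11b+ cells, against 1123 ± 153 CPM in nephritic and 350 ± 147 CPM in healthy CD103+ cells. Its difference was -3.79 ± 0.39 (SE, adjusted p = 0.000119, limma). Gcsam averaged 1.22 ± 0.748 and 7.45 ± 2.98 CPM in nephritic and healthy CD11b+ cells, against 420 ± 19.7 and 142 ± 47.3 CPM in nephritic and healthy CD103+ cells. Clnk, an adaptor of immune receptor signalling, averaged 0.351 ± 0.296 and 1.43 ± 0.372 CPM in nephritic and healthy CD11b+ cells, against 35.0 ± 3.55 and 14.1 ± 6.99 CPM in nephritic and healthy CD103+ cells. For Xcr1, Gcsam and Clnk the fall in CD11b+ cells thus concerned a level of at most 25.7 CPM in any library, while the rise in CD103+ cells concerned the main level of the gene. With leukocyte scaling their CD103+ responses were 0.13, -0.01 and -0.22 on the log2 scale and did not pass, while their falls in CD11b+ cells still passed, at -2.40, -3.10 and -2.60.

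Slamf7, Klrd1 and Zap70 also fell in CD11b+ and rose in CD103+ cells. Slamf7, a receptor of the SLAM family, averaged 63.7 ± 15 CPM in nephritic and 205 ± 40.6 CPM in healthy CD11b+ cells, against 232 ± 19.7 CPM in nephritic and 87.1 ± 37.0 CPM in healthy CD103+ cells, so that the higher subset changed with the state. Klrd1, which encodes the NK cell receptor chain CD94, averaged 32.9 ± 0.759 and 96.9 ± 20.3 CPM in nephritic and healthy CD11b+ cells, against 14.6 ± 2.47 and 5.47 ± 2.34 CPM in nephritic and healthy CD103+ cells. Zap70, the kinase of the T cell receptor, averaged 5.01 ± 1.65 and 14.2 ± 1.55 CPM in nephritic and healthy CD11b+ cells, against 6.53 ± 1.63 and 2.07 ± 0.375 CPM in nephritic and healthy CD103+ cells. Their differences were -3.19, -3.04 and -3.17, and with leukocyte scaling their CD103+ responses ran between -0.13 and 0.00 and did not pass. Alox5, which encodes 5-lipoxygenase, the first enzyme of leukotriene synthesis, kept both responses. It had 34.0, 33.1 and 33.7 CPM in nephritic and 52.8, 60.6 and 48.5 CPM in healthy CD11b+ cells. In CD103+ cells it had 8.78, 13.7 and 14.5 CPM with nephritis, against 1.80, 1.91 and 2.79 CPM in healthy cells. Its difference was -3.16 ± 0.31 (SE, adjusted p = 0.000112, limma), and both responses passed under both scalings.

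Flrt3, Stab1 and Abcc3 had a higher difference with a rise in CD11b+ cells and no CD103+ response that passed. Flrt3, a leucine-rich repeat membrane protein, averaged 74.7 ± 6.04 CPM in nephritic and 0.602 ± 0.768 CPM in healthy CD11b+ cells, against 3.56 ± 1.14 CPM in nephritic and 2.03 ± 1.29 CPM in healthy CD103+ cells. Its difference was 6.58 ± 1.08 (SE, adjusted p = 0.000894, limma), or 7.84 with leukocyte scaling. Stab1, the scavenger receptor stabilin-1, averaged 28.5 ± 7.18 and 0.942 ± 0.731 CPM in nephritic and healthy CD11b+ cells, against 0.620 ± 0.140 and 1.48 ± 1.25 CPM in nephritic and healthy CD103+ cells. Abcc3, an efflux transporter, averaged 10.6 ± 2.46 and 0.567 ± 0.607 CPM in nephritic and healthy CD11b+ cells, against 0.257 ± 0.237 and 0.719 ± 0.433 CPM in nephritic and healthy CD103+ cells. These 3 genes averaged below 4 CPM in every group but nephritic CD11b+ cells. The CD103+ responses of Stab1 and Abcc3 with leukocyte scaling, -2.43 and -3.76, passed.

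In contrast, Ace, which encodes angiotensin-converting enzyme, averaged 40.1 ± 10.5 CPM in nephritic and 35.4 ± 15.6 CPM in healthy CD11b+ cells, against 0.773 ± 0.819 CPM in nephritic and 19.5 ± 5.29 CPM in healthy CD103+ cells. Its difference was 5.35 ± 0.82 (SE, adjusted p = 0.00071, limma), or 6.61 with leukocyte scaling, with a CD11b+ response of 0.27 that did not pass. Rnase1, a secreted ribonuclease, averaged 2.07 ± 0.701 and 1.04 ± 0.503 CPM in nephritic and healthy CD11b+ cells, against 0.463 ± 0.727 and 11.6 ± 7.39 CPM in nephritic and healthy CD103+ cells. Its CD103+ response passed as a fall and its CD11b+ response did not pass, with a difference of 6.91 ± 1.56 (SE, adjusted p = 0.00483, limma). This difference rests on 27 reads in nephritic CD103+ cells and ran from 1.93 to 8.46 among the alternatives. Slc22a7, an organic anion transporter, fell in both subsets. It had 8 and 56 reads over the nephritic and healthy CD11b+ libraries, against 0 and 932 reads over the nephritic and healthy CD103+ libraries, so that its fitted difference of 5.53 rests on a group without reads and is no bound. Ace and Slc22a7 are also expressed by the proximal tubule, whose transcripts fell in the same libraries, and this was not tested.

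Among other genes with a lower difference, Crtam, Ifng and Klrb1a rose in CD103+ cells. Crtam, a receptor of activated T and NK cells, averaged 5.59 ± 3.01 CPM in nephritic and 3.53 ± 1.24 CPM in healthy CD11b+ cells, against 37.3 ± 7.26 CPM in nephritic and 2.34 ± 0.528 CPM in healthy CD103+ cells. It rose 15.8-fold in CD103+ cells, and with leukocyte scaling its response there was 2.36 on the log2 scale and still passed. Ifng, which encodes interferon-gamma, averaged 5.13 ± 0.885 and 9.41 ± 4.11 CPM in nephritic and healthy CD11b+ cells, against 11.2 ± 4.41 and 1.93 ± 1.43 CPM in nephritic and healthy CD103+ cells, with 26.0% of its exon bases shared with another annotated gene. Klrb1a, an NK cell receptor, averaged 8.87 ± 2.28 and 16.8 ± 2.84 CPM in nephritic and healthy CD11b+ cells, against 1.76 ± 0.285 and 0.252 ± 0.204 CPM in nephritic and healthy CD103+ cells. The CD11b+ responses of these 3 genes did not pass. Their CD103+ responses with leukocyte scaling included 1.06 for Ifng, which passed, and 1.35 for Klrb1a, which did not.

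Tnfrsf13c and Cyp8b1 fell in CD11b+ cells, and their CD103+ responses did not pass. Tnfrsf13c, the receptor of the B cell survival factor BAFF, averaged 1.78 ± 0.756 CPM in nephritic and 16.0 ± 2.86 CPM in healthy CD11b+ cells, against 2.46 ± 0.883 CPM in nephritic and 1.89 ± 0.607 CPM in healthy CD103+ cells. Cyp8b1, a sterol hydroxylase of bile acid synthesis, averaged 0.128 ± 0.113 and 3.61 ± 0.970 CPM in nephritic and healthy CD11b+ cells, against 50.5 ± 10.7 and 71.5 ± 24.3 CPM in nephritic and healthy CD103+ cells, and its low group held 8 reads. With leukocyte scaling their CD103+ responses, -1.26 and -2.09, passed as falls. Emilin2 and Bex6 rose in both subsets, and more in CD103+ cells, but with leukocyte scaling their CD11b+ responses, 1.2 and 1.16, did not pass. Emilin2, a matrix glycoprotein, averaged 56.9 ± 5.51 and 19.4 ± 3.84 CPM in nephritic and healthy CD11b+ cells, against 7.11 ± 1.18 and 0.104 ± 0.143 CPM in nephritic and healthy CD103+ cells. Bex6 averaged 13.6 ± 0.603 and 4.78 ± 1.2 CPM in nephritic and healthy CD11b+ cells, against 3.13 ± 0.547 and 0.0505 ± 0.0463 CPM in nephritic and healthy CD103+ cells. Since healthy CD103+ cells held 5 reads of Emilin2 and 3 of Bex6, their differences depended on the offset. With 4 CPM added before the logarithm the differences were -0.04 for Emilin2, which no longer passed, -0.44 for Cyp8b1, which no longer passed, and 0.20 for Bex6, which had turned.

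Among 36 matrix, TGF-beta and wound repair genes tested, 18 had a higher and 3 a lower difference, and their median difference was 2.18, beside -0.07 over all genes tested. With leukocyte scaling the counts were 25 and 1 and the median 3.44, beside 1.19. Over all genes tested, 17.7% had a higher and 17.7% a lower difference, and 48.8% and 1.18% with leukocyte scaling. The list held Thbs1 and Tgm2. Plau, which encodes urokinase, averaged 48.5 ± 12.4 CPM in nephritic and 44.8 ± 5.40 CPM in healthy CD11b+ cells, against 25.5 ± 3.54 CPM in nephritic and 125 ± 34.7 CPM in healthy CD103+ cells. Itgb8, an integrin chain that activates latent TGF-beta, averaged 11.8 ± 2.01 and 11.2 ± 6.87 CPM in nephritic and healthy CD11b+ cells, against 7.95 ± 1.75 and 41.3 ± 4.71 CPM in nephritic and healthy CD103+ cells. Both fell in CD103+ cells, while their CD11b+ responses did not pass under either scaling. Tubule transcripts fell in the same CD103+ libraries, and their part in these falls was not tested. Emilin2 was among the 3 members with a lower difference.

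Macrophage genes had a higher difference in 11 and a lower one in 1 of 18 tested, with a median of 1.78, and with leukocyte scaling in 13 and 0, with a median of 3.04. The shares over all genes tested were 17.7% higher and 17.7% lower, and 48.8% and 1.18% with leukocyte scaling. Csf1r, the receptor of the macrophage growth factor, averaged 458 ± 58.9 CPM in nephritic and 177 ± 27.3 CPM in healthy CD11b+ cells, against 7.98 ± 1.18 CPM in nephritic and 9.91 ± 2.58 CPM in healthy CD103+ cells. Its response passed in CD11b+ cells and not in CD103+ cells, where it was -1.91 and passed with leukocyte scaling, and its difference was 1.66 ± 0.28 (SE, adjusted p = 0.000984, limma). The 23 macrophage genes summed to 0.416% to 0.479% of CPM in nephritic and 0.173% to 0.190% in healthy CD11b+ cells, against 0.0538% to 0.0606% in nephritic and 0.0495% to 0.0616% in healthy CD103+ cells. Marco had 0 reads in nephritic CD11b+ cells and in both CD103+ groups, Siglec1 in healthy CD11b+ cells and in both CD103+ groups, and Trem2 in nephritic CD103+ cells, and the part of macrophages in the CD11b+ response was not tested. Mfge8, a bridge for the uptake of dying cells, averaged 108 ± 4.21 and 35.8 ± 4.80 CPM in nephritic and healthy CD11b+ cells, against 22.6 ± 1.42 and 44.0 ± 30.8 CPM in nephritic and healthy CD103+ cells. It rose in CD11b+ cells as deposited, while with leukocyte scaling this response, 1.23, did not pass and the CD103+ response, -2.38, did. The scavenger and dead-cell uptake list had 9 higher and 3 lower of 19 tested, with a median of 1.31, and 11 and 0 with leukocyte scaling, with a median of 2.57. With leukocyte scaling, 48.8% of all genes tested were higher, so the 11 stand close to that share.

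Lysosome and cathepsin genes had a higher difference in 11 and a lower one in 3 of 23 tested, with a median of 0.63. With leukocyte scaling the counts were 21 and 0 and the median 1.89. Of all genes tested 17.7% were higher and 17.7% lower, and 48.8% and 1.18% with leukocyte scaling, and 27.8% fell in CD103+ cells. Lgmn, the endosomal protease legumain, averaged 269 ± 22.8 CPM in nephritic and 260 ± 80.7 CPM in healthy CD11b+ cells, against 98.9 ± 18.9 CPM in nephritic and 558 ± 110 CPM in healthy CD103+ cells. Lamp1, a membrane protein of lysosomes, averaged 83.8 ± 6.57 and 94.1 ± 10.7 CPM in nephritic and healthy CD11b+ cells, against 36.7 ± 3.34 and 176 ± 13.1 CPM in nephritic and healthy CD103+ cells. Ctsd, the protease cathepsin D, averaged 388 ± 71.2 and 198 ± 39.8 CPM in nephritic and healthy CD11b+ cells, against 145 ± 13.7 and 433 ± 126 CPM in nephritic and healthy CD103+ cells, with 34.4% of its exon bases shared with another annotated gene. Lgmn and Lamp1 fell in CD103+ cells without a response that passed in CD11b+ cells, and Ctsd rose in CD11b+ and fell in CD103+ cells. Ctsd had a CD11b+ response of 0.61 with leukocyte scaling, which did not pass. Kidney tubule cells also express these lysosomal genes, and tubule transcripts fell in the same CD103+ libraries. Nuclear genes of the respiratory chain, abundant in tubule cells, had a higher difference in 15 and a lower one in 0 of 21 tested. All 21 fell in CD103+ cells. With leukocyte scaling 20 were higher and 0 lower, and the medians were 0.83 as deposited and 2.09 with it. The part of tubule cells in the falls of these lysosomal and respiratory chain genes was not tested.

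**Figure D5:**
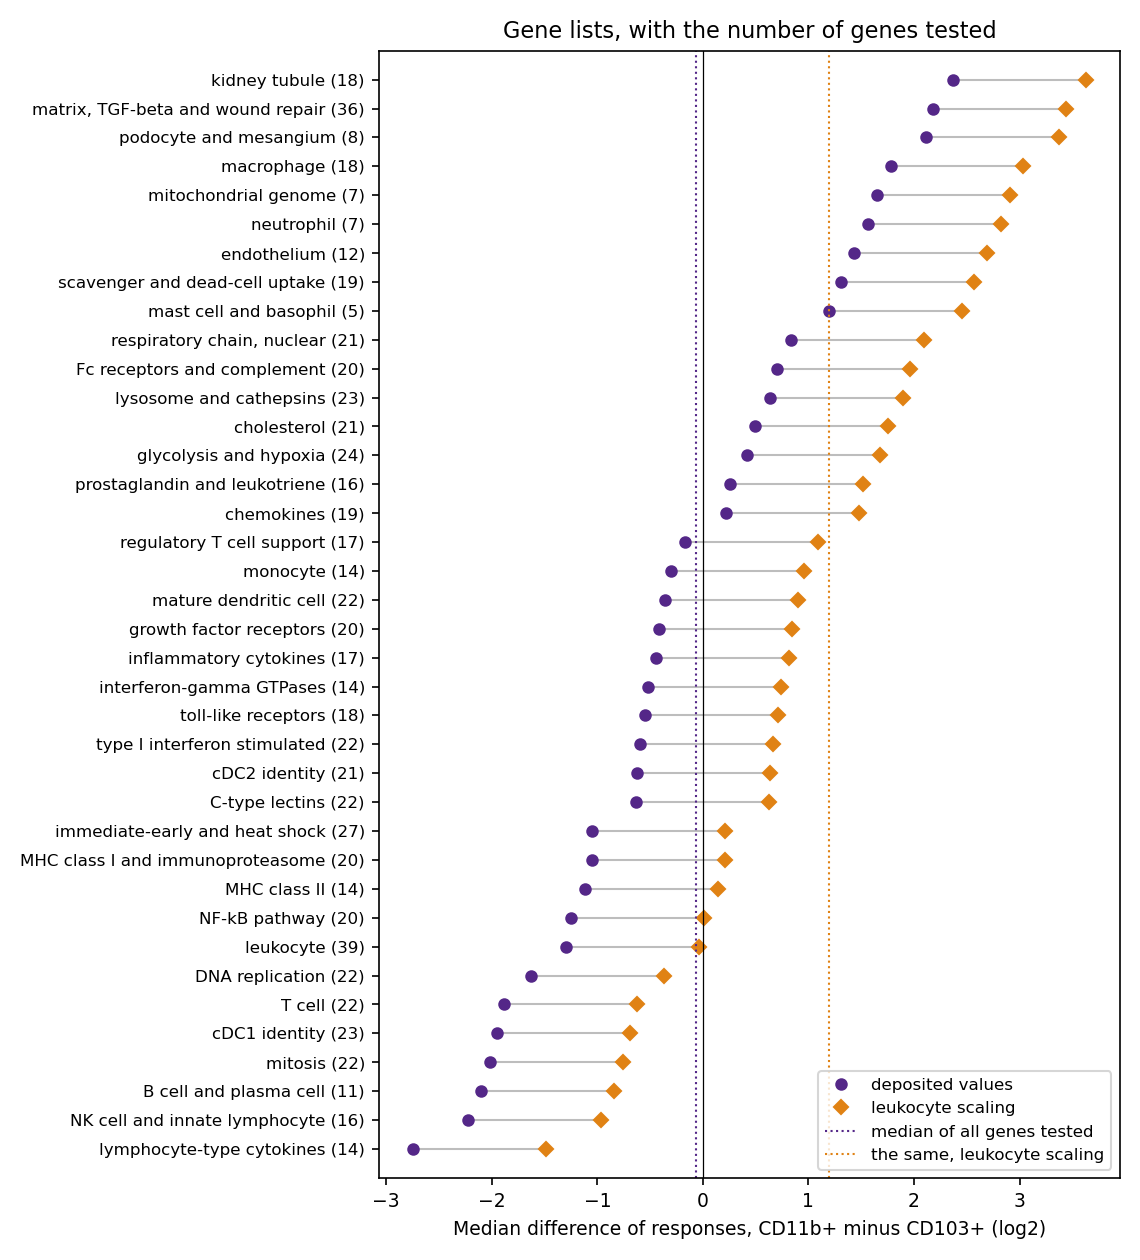
Median difference of responses (CD11b+ minus CD103+, log2) of 38 gene lists as deposited (circles) and with leukocyte scaling (diamonds); dotted lines mark the medians of all genes tested, -0.07 and 1.19. Matrix genes lay at 2.18 and lymphocyte-type cytokines at -2.75 as deposited, and leukocyte scaling moved every list upward by the same 1.26, as it raises every gene alike.

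Cell cycle genes had the most uniform lower difference. All 22 DNA replication genes tested and 21 of 22 mitosis genes had a lower difference, with medians of -1.63 and -2.02, and 0 had a higher one in either list. Over all genes tested 17.7% had a lower difference, and 1.18% with leukocyte scaling. Mcm6, a subunit of the replicative helicase, averaged 29.1 ± 6.74 CPM in nephritic and 25.4 ± 4.68 CPM in healthy CD11b+ cells, against 67.3 ± 4.16 CPM in nephritic and 8.10 ± 1.95 CPM in healthy CD103+ cells. Cenpf, a kinetochore protein, averaged 22.4 ± 2.53 and 20.8 ± 2.61 CPM in nephritic and healthy CD11b+ cells, against 51.3 ± 0.876 and 9.03 ± 1.79 CPM in nephritic and healthy CD103+ cells. Nusap1, a protein of the mitotic spindle, rose in both subsets, with 52.7 ± 6.49 and 31.5 ± 5.21 CPM in nephritic and healthy CD11b+ cells, against 143 ± 10.5 and 18.8 ± 3.53 CPM in nephritic and healthy CD103+ cells. All 22 members of each list rose in CD103+ cells, while 15 and 11 rose and 2 and 1 fell in CD11b+ cells. Of all genes tested, 34.6% rose in CD103+ cells, and 20.1% rose and 15.8% fell in CD11b+ cells. With leukocyte scaling 2 replication and 8 mitosis genes still had a lower difference, including Mcm6 at -1.63, Cenpf at -1.15 and Nusap1 at -0.93, and the medians were -0.37 and -0.76. The CD11b+ response of Nusap1 then was 0.38 and did not pass.

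Genes of the CD103+ lineage had a lower difference in 18 and a higher one in 0 of 23 tested, with a median of -1.95. Of these, 20 rose in CD103+ cells, and 12 fell and 4 rose in CD11b+ cells. Over all genes tested, 17.7% had a lower and 17.7% a higher difference. By subset, 34.6% of all genes rose in CD103+ cells, and 15.8% fell and 20.1% rose in CD11b+ cells. Tlr11, a receptor for microbial profilin, averaged 22.9 ± 5.93 CPM in nephritic and 54.3 ± 2.19 CPM in healthy CD11b+ cells, against 279 ± 51.4 CPM in nephritic and 106 ± 44.9 CPM in healthy CD103+ cells. With leukocyte scaling its CD103+ response was -0.15 and did not pass, while its difference, -1.49, did. Flt3, the growth factor receptor of dendritic cells, averaged 52.6 ± 6.63 and 133 ± 17.7 CPM in nephritic and healthy CD11b+ cells, against 284 ± 6.43 and 152 ± 67.7 CPM in nephritic and healthy CD103+ cells. Leukocyte scaling left 11 lower and 3 higher calls and a median of -0.69, beside 1.18% lower and 48.8% higher calls over all genes tested. Under it the CD103+ response of Flt3 was -0.62 and passed in the opposite direction, while its CD11b+ response was -1.70 and its difference -1.08, which passed.

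Lymphocyte-type cytokines, the list that holds Csf2, Xcl1 and Ifng, had a lower difference in 9 and a higher one in 0 of 14 tested. Lower differences made up 17.7% of all genes tested, and 1.18% with leukocyte scaling. The median was -2.75, or -2.68 with genes of a group without reads set at their bound, and -1.49 with leukocyte scaling, which left 3 lower calls. Ccl4, a chemokine that attracts T cells and monocytes, averaged 1203 ± 103 CPM in nephritic and 1236 ± 56.8 CPM in healthy CD11b+ cells, against 1010 ± 66.2 CPM in nephritic and 360 ± 183 CPM in healthy CD103+ cells. Its difference was -1.64 ± 0.34 (SE, adjusted p = 0.00298, limma) and -0.38 with leukocyte scaling, which did not pass, nor did its CD103+ response, -0.03.

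Marker lists of lymphocytes moved in the same direction as these cytokines. T cell genes had a lower difference in 20 and a higher one in 1 of 22 tested (median -1.88), NK cell and innate lymphocyte genes in 13 and 1 of 16 (median -2.22), and B cell genes in 8 and 0 of 11 (median -2.10). With leukocyte scaling the lower and higher calls were 3 and 1 of T cell genes (median -0.62), 8 and 2 of NK cell genes (median -0.96), and 1 and 0 of B cell genes (median -0.84). Over all genes tested 17.7% were lower and 17.7% higher, and 1.18% and 48.8% with leukocyte scaling. The 22 T cell genes summed to 0.0859% to 0.0995% of CPM in nephritic and 0.102% to 0.132% in healthy CD11b+ cells, against 0.0760% to 0.0884% in nephritic and 0.0239% to 0.0388% in healthy CD103+ cells. The 17 NK cell genes summed to 0.0675% to 0.0908% in nephritic and 0.0842% to 0.0947% in healthy CD11b+ cells, against 0.219% to 0.231% in nephritic and 0.117% to 0.136% in healthy CD103+ cells. No T or NK cell marker was at 0 reads in any group, and the part of such cells in the levels of Csf2, Xcl1, Ifng and Crtam was not tested. Cd28, the costimulatory receptor of T cells, averaged 119 ± 13.6 and 121 ± 9.37 CPM in nephritic and healthy CD11b+ cells, against 112 ± 11.0 and 26.6 ± 7.65 CPM in nephritic and healthy CD103+ cells. Ms4a1, which encodes the B cell protein CD20, averaged 8.78 ± 3.11 and 36.9 ± 10.4 CPM in nephritic and healthy CD11b+ cells, against 7.86 ± 1.17 and 6.31 ± 2.01 CPM in nephritic and healthy CD103+ cells. The difference with leukocyte scaling was -0.87 for Cd28, which passed, and -1.18 for Ms4a1, which did not, and the CD103+ response of Ms4a1 was -1.28 and passed as a fall. The 12 B cell genes summed to 0.0287% to 0.0852% of CPM in nephritic and 0.136% to 0.241% in healthy CD11b+ cells, beside which the fall of Tnfrsf13c stands.

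Antigen presentation and NF-kB genes had lower differences as deposited. Nearly all of these lower calls were lost with leukocyte scaling, which raises every difference by 1.26. Class I and immunoproteasome genes had a lower difference in 16 of 20 tested, MHC class II genes in 9 of 14 and NF-kB genes in 15 of 20, against 0, 1 and 1 with a higher one. With leukocyte scaling the lower calls were 0, 0 and 1, the higher calls 1, 2 and 2, and the medians 0.21, 0.14 and 0.01. These medians still lay below the 1.19 of all genes tested. All genes tested gave 17.7% lower and 17.7% higher calls, and 1.18% and 48.8% with leukocyte scaling. Psmb8, a subunit of the immunoproteasome, averaged 119 ± 21.8 CPM in nephritic and 114 ± 13.8 CPM in healthy CD11b+ cells, against 280 ± 14.7 CPM in nephritic and 83.0 ± 37.0 CPM in healthy CD103+ cells, and its difference with leukocyte scaling, -0.54, did not pass, nor did its CD103+ response, 0.24. Nfkbia, the inhibitor of NF-kB, fell in CD11b+ and rose in CD103+ cells, with 342 ± 7.88 and 780 ± 89.2 CPM in nephritic and healthy CD11b+ cells, against 145 ± 11.1 and 92.0 ± 31.7 CPM in nephritic and healthy CD103+ cells. Its difference was -1.90 ± 0.28 (SE, adjusted p = 0.000498, limma) and -0.64 with leukocyte scaling, which passed, with a CD103+ response that then was -0.91 and passed as a fall. Ier2, an immediate-early gene, fell in both subsets, to 20.2 ± 1.45 CPM in nephritic CD11b+ cells, against 201 ± 21.1 CPM in healthy ones, and to 13.5 ± 1.56 CPM in nephritic CD103+ cells, against 34.1 ± 15.4 CPM in healthy ones.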

How the data were processed

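The authors deposited 1 table of log2 values with 26281 lines and 12 libraries. Tools named by the submitters' processing notes are STAR 2.0.4b, featureCounts 1.4.5, Subread and edgeR, with no build of the genome named. The values were read as log2 of (reads + 0.5) per 1000000 of a scaled library size, since this gave back whole reads for 100% of genes within 0.05 in each library. Dropping 160 repeats left 26121 genes. GENCODE M21 (GRCm38) held 26004 of the IDs and gave coordinates and 27 symbols that had become dates.

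Tested were the 14180 genes with a log2 value of 0 or more in 3 or more libraries, which left out 11941. A limma 3.58.1 fit in R 4.3.3 gave each group 1 mean, with trended, robust empirical Bayes. Its 3 contrasts (both responses and their difference) had two-sided tests, a threshold of 0.05 and p-values adjusted by Benjamini and Hochberg within the contrast. The script was tested on simulated data. Fold changes come from this fit, and CPM are the recovered reads per scaled library size. Because nothing says which libraries share a mouse, p-values measure the spread between these libraries.

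The members and all 38 gene lists were chosen with earlier results of these data known. Named genes are Thbs1, Tgm2, Csf2 and Xcl1, then the 8 largest differences in each of 4 classes (opposing in either direction, other higher, other lower). These needed 10 CPM in their highest group and a difference that also passed under leukocyte scaling, and unnamed gene models and antigen receptor segments were passed over. For each list, up to 3 genes of lowest adjusted p could also be named, and some of these are not described. A gene that met the first rule is not reported here. Tnfaip2, Steap3, Zhx3, Bmx, Gca, Itgae, Itgam, Marco, Siglec1 and Trem2 were named outside this rule. The alternatives were an offset of 0.25 or 4 CPM, all genes unfiltered, a minimum of 5 CPM, centring on the median, quantile normalization, leukocyte scaling, the tubule covariate, array weights, a replicate block, empirical Bayes without trend, an adjusted p under 0.01, and each library left out in turn. Tables and plots used pandas 2.3.3, numpy 2.4.6 and matplotlib 3.10.9 in Python 3.11.15.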

Additional observations from a re-analysis of the deposited data

Results flagged for a closer look

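Besides Thbs1, Tgm2, Csf2 and Xcl1, the genes below were singled out for a large difference within their class, by the naming rule given above. The sizes of these differences are therefore extremes by choice. All genes below passed limma's test of the difference itself, with adjusted p between 6.16e-05 and 0.0127. Values are differences of responses, CD11b+ less CD103+, on the log2 scale.

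Of the genes that rose in CD11b+ and fell in CD103+ cells, F10 stood at 5.80, Rai14 at 5.66, Thbs1 at 5.23, Atp6v1b1 at 5.07, Cdh1 at 4.90, Tmem151b at 4.89, Trpv5 at 4.74 and Tgm2 at 4.15. Of those that fell in CD11b+ and rose in CD103+ cells, Xcl1 stood at -4.91, Gcsam at -4.35, Xcr1 at -3.79, Clnk at -3.64, Slamf7 at -3.19, Zap70 at -3.17, Alox5 at -3.16 and Klrd1 at -3.04. The other genes with a higher difference were Rnase1 at 6.91, Abcc3 at 6.75, Flrt3 at 6.58, Stab1 at 6.09, Slc22a7 at 5.53, Ace at 5.35, Slc26a4 at 5.18 and Slc4a9 at 5.06. The other genes with a lower difference were Csf2 at -5.92, Emilin2 at -4.80, Cyp8b1 at -4.76, Bex6 at -3.95, Klrb1a at -3.91, Tnfrsf13c at -3.59, Ifng at -3.45 and Crtam at -3.43. Of these, Atp6v1b1, Trpv5, Slc26a4, Slc4a9, Slc22a7 and Ace are known from kidney tubules, whose transcripts summed to 3.50% to 5.66% of CPM in healthy CD103+ libraries. The part of tubule transcripts in these differences, and in that of Cdh1, was not tested.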

How the results depend on the processing

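Leukocyte scaling, which raises every difference by 1.26, gave 6921 higher and 167 lower differences and 3 genes that fell in CD11b+ and rose in CD103+ cells. The tubule covariate gave 0 calls of each kind, 1350 at an unadjusted p under 0.05, and kept the sign of 4295 of the 5022 differences, but turned Slc26a4 to -0.81 and Trpv5 to -0.83. Array weights gave 278 genes that rose in CD11b+ and fell in CD103+ cells and 342 of the other kind. An adjusted p under 0.01 left 2585 differences, 1356 higher and 1229 lower, and 42 and 55 opposing genes. An offset of 4 CPM turned Bex6 to 0.20. Leaving out 1 library gave 4015 to 5938 differences, 1977 to 2817 higher and 1953 to 3121 lower, 86 to 240 genes that rose in CD11b+ and fell in CD103+ cells, and 107 to 316 of the other kind. With the replicate block 4696 genes differed, 2368 higher and 2328 lower, and 150 and 177 opposed. This block joined libraries of the same number across all 4 groups, hence across different mice, and is no test of pairing by mouse. Same-numbered libraries correlated, in their deviations from group means, at 0.07, 0.05 and 0.15 in nephritis and at -0.01, 0.0003 and -0.15 in health. Libraries of unlike number correlated at -0.14 to 0.07 in nephritis and at -0.10 to 0.11 in health. Deviations within a group of 3 sum to 0, so these values cannot decide pairing. The numbers were not taken as pairs because the sources do not say which libraries share a mouse. The cause of the other changes was not tested. Genes of few reads are limited by depth.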

Other observations

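Pla2g7, which encodes the phospholipase that breaks down platelet-activating factor, averaged 320 ± 87.1 CPM in nephritic and 64.5 ± 26.9 CPM in healthy CD11b+ cells, against 14.4 ± 4.67 CPM in nephritic and 13.3 ± 1.80 CPM in healthy CD103+ cells, with a difference of 2.28 ± 0.42 (SE, adjusted p = 0.00163, limma). Clec5a, a lectin receptor of myeloid cells, averaged 83.0 ± 12.7 and 7.11 ± 3.72 CPM in nephritic and healthy CD11b+ cells, against 2.27 ± 0.165 and 1.93 ± 0.780 CPM in nephritic and healthy CD103+ cells. Both rose in CD11b+ cells, and their CD103+ responses did not pass as deposited, while with leukocyte scaling these, -1.56 and -1.32, passed as falls. Nr1h3, the oxysterol receptor LXR alpha, averaged 17.4 ± 2.51 and 10.5 ± 3.08 CPM in nephritic and healthy CD11b+ cells, against 3.22 ± 1.83 and 30.6 ± 6.92 CPM in nephritic and healthy CD103+ cells. Tmem176a and Tmem176b fell in CD103+ cells, with CD11b+ responses that did not pass. Tmem176b averaged 797 ± 33.5 and 793 ± 86.5 CPM in nephritic and healthy CD11b+ cells, against 93.1 ± 14.5 and 643 ± 152 CPM in nephritic and healthy CD103+ cells, and the difference was 2.78 for Tmem176b and 2.94 for Tmem176a.

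Among interferon-stimulated genes there were 0 higher and 4 lower differences of 22 type I genes tested, with a median of -0.59, beside 17.7% of all genes in either direction. The 4 lower ones stand close to that share. With leukocyte scaling, which raises every difference by 1.26, the counts were 8 higher and 0 lower, with a median of 0.67. All genes tested then gave 48.8% higher and 1.18% lower differences, with a median of 1.19, so the list lay below all genes in its median. Usp18, an enzyme that limits interferon signalling, averaged 46.1 ± 10.6 CPM in nephritic and 56.2 ± 5.06 CPM in healthy CD11b+ cells, against 59.3 ± 14.0 CPM in nephritic and 25.7 ± 3.22 CPM in healthy CD103+ cells, with a difference of -1.49, or -0.23 with leukocyte scaling, which did not pass, nor did its CD103+ response, -0.44. Il10, the anti-inflammatory cytokine, rose in both subsets, with 7.99 ± 2.20 and 1.48 ± 1.07 CPM in nephritic and healthy CD11b+ cells, against 6.30 ± 1.92 and 0.104 ± 0.143 CPM in nephritic and healthy CD103+ cells. Its difference of -3.57 was -0.18 with an offset of 4 CPM and -2.31 with leukocyte scaling, and neither passed, nor did its CD11b+ response with leukocyte scaling, 2.24. Ptger4, a receptor of prostaglandin E2, fell in CD11b+ and rose in CD103+ cells, with 27.9 ± 0.829 and 62.8 ± 3.00 CPM in nephritic and healthy CD11b+ cells, against 19.2 ± 2.86 and 7.61 ± 3.15 CPM in nephritic and healthy CD103+ cells. Hk2, a hexokinase of glycolysis, did the same, with 55.9 to 74.5 CPM in nephritic and 104 to 184 CPM in healthy CD11b+ cells, against 51.0 to 65.9 CPM in nephritic and 16.6 to 41.3 CPM in healthy CD103+ cells. With leukocyte scaling the CD103+ responses of Ptger4 and Hk2 were -0.23 and -0.47 and did not pass, while their differences passed.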
